A study of Arabidopsis thaliana with 4 samples.

Results

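The genes described here lie in the gene-poor pericentromeric stretches of the 5 Arabidopsis thaliana chromosomes. A gene was taken when its start in the deposited gene table fell between 12.85 and 16.85 Mb on chromosome 1, 3.0 and 7.0 Mb on chromosome 2, 12.0 and 16.0 Mb on chromosome 3, 2.4 and 5.55 Mb on chromosome 4, or 9.9 and 13.9 Mb on chromosome 5 (TAIR10). Position alone decided among the genes of that table, which holds only genes the authors had called different between the genotypes. It returned 66 of the 1984 genes of the table, with 13, 19, 13, 10 and 11 genes on chromosomes 1 to 5. Transcripts were measured by single-end mRNA-seq in whole seedlings that were 10 days old, with 2 libraries of ndx1-4 and 2 of Col-0. The ndx1-4 plants carry a T-DNA insertion (WiscDsLox344A04) in NODULIN HOMEOBOX (NDX), a single insertion allele, and Col-0 is the wild type without it. Both genotypes had the same age, and the labels name no treatment. Whether each library pooled several seedlings is not given in the sources used here, so a p-value measures the spread between these libraries, which may be technical.

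Pericentromeric chromatin flanks the centromere, and in Arabidopsis it is rich in transposable elements, carries dense DNA methylation and histone H3 lysine 9 methylation, and holds few genes. Genes within it are often surrounded by silenced elements, yet many are expressed normally and some encode central metabolic enzymes. NDX belongs to the homeobox proteins of plants and is known for roles in repressing transcription and in keeping heterochromatin, and the comparison asks how seedling transcripts change when it is disrupted. Seedling RNA is bulk RNA, so fewer cells that express a gene and less RNA per cell cannot be told apart.

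The unit is FPKM, read abundance divided by transcript length and by the sequencing amount of the library. The table lists only genes that the authors had already called different between the genotypes. A difference is therefore built into every gene described, and unchanged pericentromeric genes were not analysed here. NDX itself (AT4G03090) lies outside the intervals, 2.61 Mb before the middle of that on chromosome 4. It had 0.98 and 1.00 FPKM in ndx1-4 and 5.08 and 4.96 FPKM in Col-0, lower in both libraries labelled as the mutant. Read depth is unknown, and FPKM summed over all 1984 genes was 273974 and 276893 in ndx1-4 and 283844 and 282548 in Col-0. Of marker lists for other organs and stages, 9 seed storage and oil body genes were in the table. All 9 were lower, and together they summed to 69.2 and 59.4 FPKM in ndx1-4 against 1076 and 1116 FPKM in Col-0. The floral genes AP3, PI and SEP3 were all higher, with sums of 46.3 and 44.8 FPKM in ndx1-4 against 1.98 and 2.12 FPKM in Col-0. The root gene CASP1 was higher (36.4 and 41.2 FPKM in ndx1-4, 26.6 and 22.6 FPKM in Col-0), and of 9 matched leaf genes RBCS3B alone was listed, lower (4108 and 4372 FPKM in ndx1-4, 4699 and 4738 FPKM in Col-0). No listed marker was at 0 in a library. None of these markers lies in the intervals, and the part of such a difference in the values given next was not tested.

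The intervals are short of genes and full of gene remnants. They span 19.15 Mb and hold 4556 annotated loci in the RefSeq annotation of TAIR10.1, of which 1263 are protein coding and 2859, or 62.8%, are pseudogenes, a class that here includes transposon genes. Coding density was 66.0 genes per Mb inside and 262 genes per Mb outside, where 5.95% of loci were pseudogenes. The gene table held 4.99% of the coding genes inside the intervals and 7.23% of those outside. A window of 50 kb on each side of a pericentromeric gene of the table held a median of 10 coding genes and 12 pseudogenes. Around the other 1918 listed genes the medians were 28 coding genes and 1 pseudogene. Of the 66 genes, 63 were protein coding, AT2G14878 and AT5G34871 were noncoding RNAs, and AT3G41768 was an 18S ribosomal RNA. Genes with a single exon, after the exons of all transcripts of a gene were merged, made up 22.7% of them (15 genes) and 14.3% of all listed genes. Their median level over the 4 libraries was 29.1 FPKM, close to the 29.6 FPKM of all listed genes.

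In ndx1-4, 33 of the 66 genes were higher and 33 were lower than in Col-0. With limma on log2(FPKM + 1), fitted over all 1984 genes with Benjamini-Hochberg adjustment, all 66 passed an adjusted p of 0.01, and so did 98.9% of the whole table, a list chosen on these libraries. The 33 higher genes were 50% of the members, where 43% of all listed genes were called higher, and the 33 lower genes were 50%, where 55.9% of all were called lower. For all 66 genes the libraries of the genotypes did not overlap, a property of 99.9% of the table. The even split depended on scaling. When libraries were scaled by the median ratio of the listed genes, which moved the median difference by 0.19 on the log2 scale, 33 were called higher and 22 lower, and the called genes were 60% higher. The same scaling made 58.7% of the called genes in the whole table higher. It sets the median ratio of the listed genes level, though all were chosen as different. The move toward higher is therefore built in, and which split is nearer the truth was not tested. Each of the 4 libraries was also left out in turn. No member changed sign in these 4 fits, but many members with small differences lost the call. The share of all listed genes that lost it was not compared, so no trait of the members is read from these losses.

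Sizes spread more widely than in the rest of the table. The median absolute log2 ratio of mean FPKM was 0.58 for the pericentromeric genes and 0.46 for all listed genes. Libraries of the same genotype differed by a median of 0.06 in ndx1-4 and 0.05 in Col-0 on the same scale. Small differences were common, and 32 of the 66 (48.5%) differed by less than 1.5-fold, as did 58.7% of all. At least 2-fold higher were 10 genes, or 15.2%, where 11.3% of all listed genes were. At least 2-fold lower were 12 genes, or 18.2%, where 10.7% of all were. AT4G08263 and AT2G11405 were at 0 in both Col-0 libraries and have no ratio, which brings the strongly different genes to 12 higher and 12 lower. These counts use FPKM as deposited and were not repeated with median-ratio scaling, which moves genes toward higher. With it the limma differences of ANNAT1, SHM7 and AT3G43850 changed from -1.11, -1.01 and -1.05 to -0.92, -0.83 and -0.87. That of AT5G34871 changed from 0.88 to 1.06, so the even count is that of unscaled values. With a library left out, the ratio moved by more than 1.5-fold in 3 of the 64 members that have one. Several of the higher genes lost the limma call in such fits, as given with each gene below. How often other listed genes of this size did so was not compared.

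**Figure D1:**
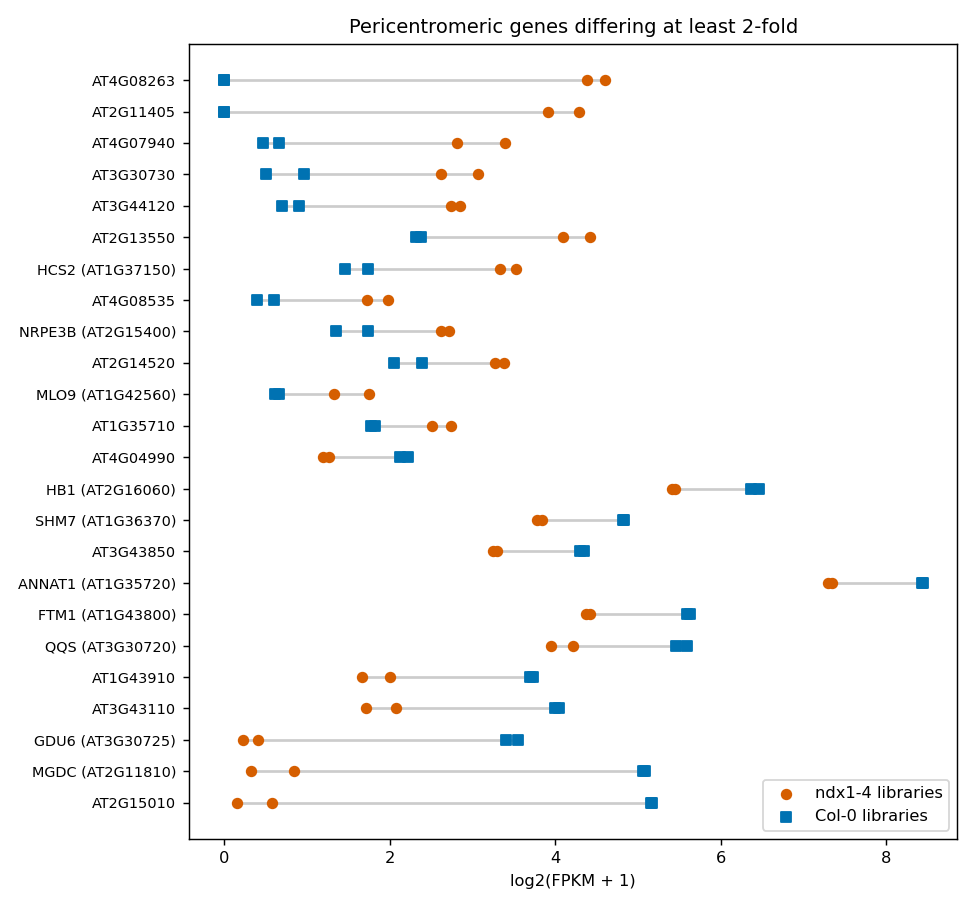
Level of the 24 pericentromeric genes that differed at least 2-fold or were at 0 in Col-0, as log2(FPKM + 1) on the horizontal axis, with one row per gene and one point per library (circles, ndx1-4; squares, Col-0). Genes are ordered by the limma difference, and in no row do the circles and squares overlap.

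**Figure D2:**
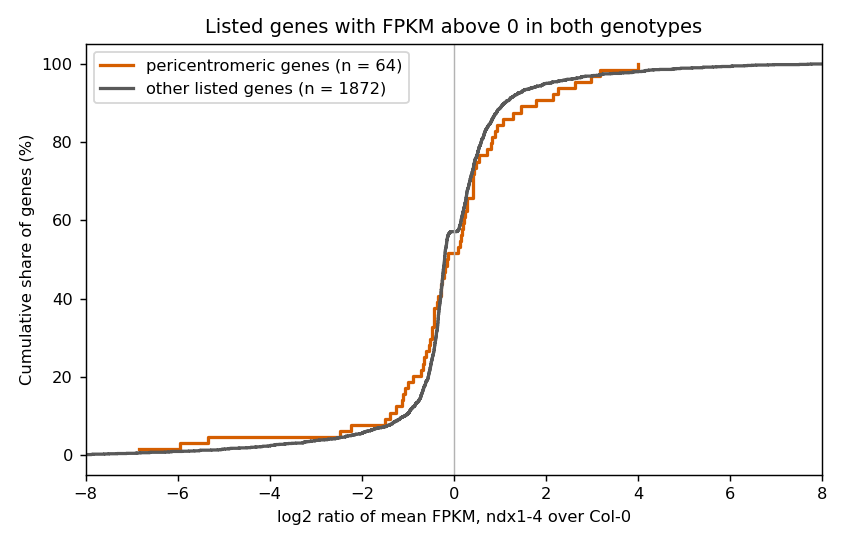
Cumulative share of genes, in percent, against the log2 ratio of mean FPKM in ndx1-4 over Col-0, for the 64 pericentromeric genes and the 1872 other listed genes with values above 0 in both genotypes. The pericentromeric curve leaves the other near -1 and near 1, where it holds more of the larger differences, and both are flat around 0 because the table lists only called genes.

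Both genes at 0 in Col-0 are short and little known. AT4G08263 is annotated as a storekeeper-like DNA-binding protein, a class of plant transcriptional regulator, and lies on the minus strand of chromosome 4 from 5211604 to 5212137 with 2 exons. It had 19.9 and 23.3 FPKM in ndx1-4 against a value of 0 in each Col-0 library (limma difference 4.50, SE 0.11, adjusted p = 3.81e-08). AT2G11405, an uncharacterized protein gene with 1 exon on the plus strand of chromosome 2 from 4543175 to 4543522, had 14.1 and 18.5 FPKM in ndx1-4 and was also at 0 in both Col-0 libraries (limma difference 4.10, SE 0.14, adjusted p = 1.47e-07). In both, the transcript was measured in the mutant libraries alone. All words of 50 bases in either gene occurred once in the genome, so reads of the sequenced length could be assigned to them. The bases just before each gene are shown because no transcript of the gene was recorded in Col-0, so that the stretch a promoter search would start from can be read. Each is 200 bases before the annotated start in lower case and then the first 20 bases of the gene in capitals, on the gene's strand, from RefSeq TAIR10.1.
AT4G08263, chr4:5212118-5212337, minus strand: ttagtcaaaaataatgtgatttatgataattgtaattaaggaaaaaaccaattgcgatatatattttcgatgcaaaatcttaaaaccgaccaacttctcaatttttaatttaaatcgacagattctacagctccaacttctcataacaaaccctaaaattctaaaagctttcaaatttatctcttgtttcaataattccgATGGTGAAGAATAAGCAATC
AT2G11405, chr2:4542975-4543194, plus strand: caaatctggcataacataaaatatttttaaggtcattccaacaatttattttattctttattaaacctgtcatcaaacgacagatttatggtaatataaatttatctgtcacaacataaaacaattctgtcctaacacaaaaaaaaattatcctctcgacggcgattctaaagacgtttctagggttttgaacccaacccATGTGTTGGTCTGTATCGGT
Both annotated starts are the ATG, so any untranslated leader lies in the lower-case letters. G and C make up 27% of the bases upstream of AT4G08263 and 30.5% of those upstream of AT2G11405. The median was 29.5% for the 66 genes and 31% for all listed genes. Beyond the 3' end of AT2G11405, 2006 bases away, begins the listed LINE element AT2TE18965 (family ATLINE1_4). It had 105 and 173 FPKM in ndx1-4 and was at 0 in both Col-0 libraries, the same pattern as the gene. Levels of elements and genes are not on one scale, because the authors quantified them against separate references.

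Transposable elements that were themselves listed overlapped 4 of the pericentromeric genes, or 6.06%, and 15 of all listed genes, or 0.756%. Element density differs between the intervals and the arms, so this contrast is a description of where both lists lie. The table of elements held 15 entries in the intervals, of which 9 were higher and 6 lower in ndx1-4. The 4 overlapping elements were all higher, as were the 4 genes. Reads of the shared bases can count for the gene in one table and for the element in the other, so the paired values are not separate measurements.

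The first pair has a gene of low level in Col-0. AT4G07940, annotated as a CWC22-like pre-mRNA splicing factor, had 6.05 and 9.55 FPKM in ndx1-4 and 0.39 and 0.58 FPKM in Col-0, or 16.1-fold higher (limma difference 2.54, SE 0.19, adjusted p = 1.03e-05, and up to 0.0115 with a library left out). It shares 397 bases, 77 of them coding, with the HARBINGER DNA transposon AT4TE19970, which starts upstream of the gene. The element had 753 and 1218 FPKM in ndx1-4 and 45.2 and 0 FPKM in Col-0. In both rows ndx1-4 replicate 2 was the higher mutant library. AT2G13550, an uncharacterized single-exon gene, had 20.4 and 16.1 FPKM in ndx1-4 and 3.98 and 4.21 FPKM in Col-0, or 4.46-fold higher (limma difference 1.91, SE 0.11, adjusted p = 3.61e-06). The SINE element AT2TE22815 (ATSINE2A) lies within it on the opposite strand and shares all of its 439 bases, 68 of them coding. That element had 7273 and 5046 FPKM in ndx1-4 and 1363 and 1455 FPKM in Col-0, and here ndx1-4 replicate 1 was the higher mutant library in gene and element alike. Whether counting used strand is not given in the sources used here, so reads of the gene and of an element on its other strand cannot be told apart.

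In the second pair the element lies within an exon of a gene for a proline-rich wall protein. AGP9 (AT2G14890) encodes arabinogalactan protein 9, a heavily glycosylated cell-surface protein, and had 256 and 247 FPKM in ndx1-4 and 207 and 206 FPKM in Col-0, or 1.22-fold higher (limma difference 0.28, SE 0.03, adjusted p = 4.27e-05, and up to 0.0109 with a library left out). All 577 bases of AT2TE26110 (ATENSPM1A) are exonic in it and 519 are coding. That element had 102690 and 103246 FPKM in ndx1-4 and 78559 and 83935 FPKM in Col-0, a 1.27-fold difference. EXT13 (AT5G35190) encodes an extensin, a rod-like wall protein, and had 54.4 and 53.7 FPKM in ndx1-4 and 39.4 and 40.1 FPKM in Col-0, or 1.36-fold higher (limma difference 0.43, SE 0.04, adjusted p = 2.98e-05). All 329 bases of AT5TE47605 (ATHILA6A) are coding in EXT13, and the element had 75156 and 81886 FPKM in ndx1-4 and 53866 and 56303 FPKM in Col-0, a 1.43-fold difference. The middle 120 bases of the stretches shared by AGP9 and EXT13 are shown, on the gene's strand and with coding bases in capitals, because there a listed element and a coding sequence are the same letters.
AGP9, chr2:6399919-6400038, plus strand: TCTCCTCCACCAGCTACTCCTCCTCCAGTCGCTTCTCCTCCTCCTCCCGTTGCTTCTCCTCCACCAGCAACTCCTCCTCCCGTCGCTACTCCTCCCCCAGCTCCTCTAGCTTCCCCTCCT
EXT13, chr5:13434798-13434917, plus strand: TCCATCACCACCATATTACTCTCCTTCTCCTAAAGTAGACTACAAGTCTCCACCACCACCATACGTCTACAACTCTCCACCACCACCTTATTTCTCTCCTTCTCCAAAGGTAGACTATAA
Every base shown is coding and both stretches are rich in C.

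**Figure D3:**
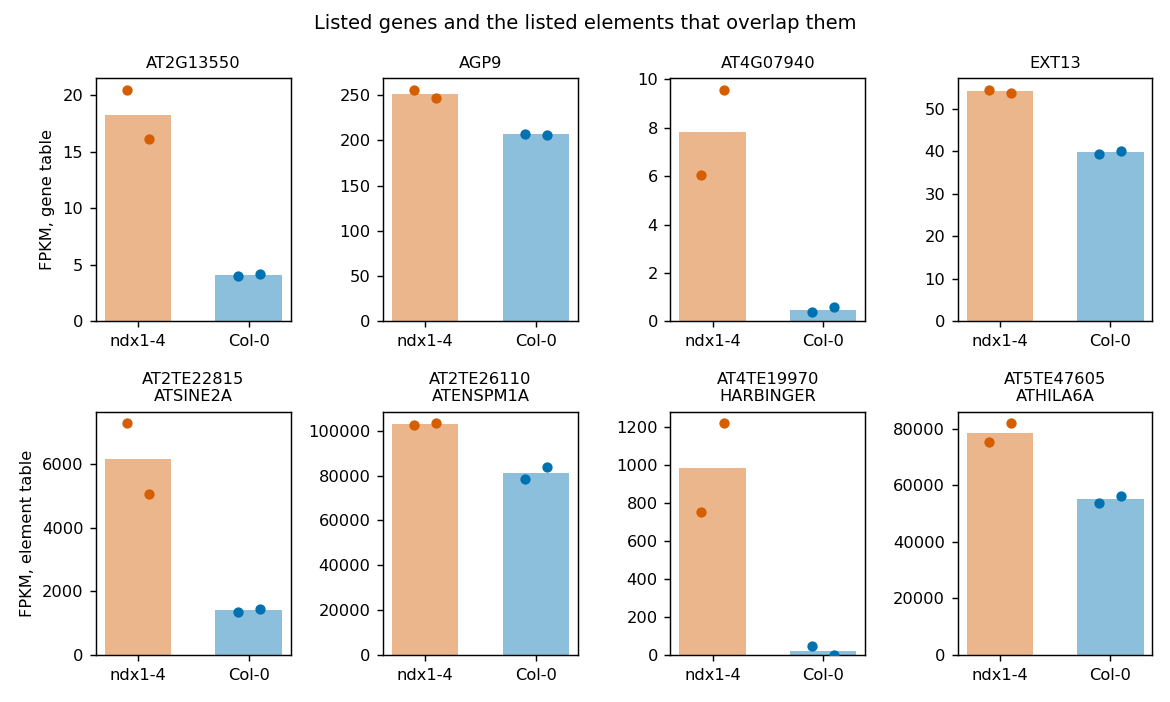
FPKM of the 4 pericentromeric genes that overlap a listed element (upper row) and of that element (lower row), with ndx1-4 left and Col-0 right, bars at the mean of 2 libraries and a point for each library. In every panel both ndx1-4 points lie above both Col-0 points, and AT4TE19970 is at 0 in a Col-0 library. The rows have separate scales because genes and elements were quantified apart.

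For a reading by function, the genes were sorted into role groups from their annotation after the values had been seen, so the counts per group are descriptions. The group of transcription, RNA, translation and protein turnover had 7 of 10 genes higher and 3 lower. Nitrogen, amino acid and nitrile metabolism had 4 higher and 6 lower, and carbon, lipid, starch and vitamin metabolism had 5 higher and 4 lower. Of 6 transport genes 1 was higher and 5 were lower. Cell wall and secreted proteins, with the thionin gene AT2G15010 among them, had 3 each way. Receptors, signalling and defence had 2 each way, and sulphur and redox metabolism had 1 higher and 2 lower. Both noncoding RNAs were higher. The remaining 16 genes, known at most by a domain, had 8 each way. With median-ratio scaling AT1G36730 among the RNA and protein genes, AGT among the nitrogen genes and AT4G05150 among the genes of unknown role turned from lower to higher, so that 36 of the 66 genes were higher and 30 lower.

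Among genes of RNA and protein handling, NRPE3B (AT2G15400) encodes a subunit of RNA polymerase V, the plant polymerase that makes scaffold transcripts for RNA-directed DNA methylation. It had 5.60 and 5.13 FPKM in ndx1-4 and 2.33 and 1.56 FPKM in Col-0, 2.76-fold higher (limma difference 1.12, SE 0.14, adjusted p = 1.38e-04, and up to 0.0255 with a library left out). The groups did not overlap, but the Col-0 libraries differed more from each other than the mutant ones. Of 34 names in a list of silencing and RNA-directed DNA methylation genes, 31 were matched to a locus and 3 were in the gene table. None of the 3 was pericentromeric. All 3 were called higher, where 43% of all listed genes were, and no trend is read from 3 genes. NRPE1 (listed as NRPD1B), the largest subunit of the same polymerase, had 3.73 and 4.00 FPKM in ndx1-4 and 2.87 and 2.63 FPKM in Col-0. AGO9, a germline-linked Argonaute, had 2.91 and 3.01 FPKM in ndx1-4 and 0.16 and 0.17 FPKM in Col-0, and ROS1 (listed as DML1), a DNA demethylase, had 16.2 and 17.1 FPKM in ndx1-4 and 8.85 and 8.76 FPKM in Col-0.

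The F-box genes, whose proteins choose targets for ubiquitination, were both higher. AT4G08535, annotated as SKIP17-like, had 2.94 and 2.30 FPKM in ndx1-4 and 0.52 and 0.32 FPKM in Col-0, 6.24-fold higher (limma difference 1.35, SE 0.14, adjusted p = 5.35e-05, and 0.0103 without Col-0 replicate 2). AT3G44120 had 5.68 and 6.21 FPKM in ndx1-4 and 0.63 and 0.88 FPKM in Col-0, 7.87-fold higher (limma difference 1.99, SE 0.12, adjusted p = 3.41e-06). This value is uncertain, since 45.2% of the 50-base words of AT3G44120 were unique and the coding genes AT2G07140 and AT3G18320 carry copies of others. Among all listed genes, 30 of 36 with F-box in the product name were higher. AN3 (AT5G28640), a growth-promoting transcriptional coactivator, was 1.34-fold higher, and the ribosomal protein S3 gene AT5G35530 was 1.15-fold higher, one of 37 of 38 listed ribosomal protein genes that were. The translation factor gene AT1G36730 and the cyclophilin gene AT5G35100 were 1.14-fold and 1.2-fold lower. AT1G36730 changed sign with median-ratio scaling. AN3, AT1G36730 and AT5G35100 lost the call in all 4 fits that left out a library and AT5G35530 in 3, with adjusted p in limma up to 0.0311, 0.0416, 0.0513 and 0.0249. The 18S ribosomal RNA AT3G41768, the member nearest the middle of an interval on chromosome 3 at 0.198 Mb, had 369 and 369 FPKM in ndx1-4 and 500 and 578 FPKM in Col-0. Only 5.69% of its 50-base words were unique, with the other ribosomal RNA locus AT2G01010 as the main copy, and the library protocol enriches polyadenylated RNA, so this value is also uncertain. It lost the call without either mutant library, with adjusted p in limma up to 0.0290.

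Among genes with a ratio, the 3 largest ratios were reductions. AT2G15010, a thionin gene of the small cysteine-rich antimicrobial peptides, had 0.49 and 0.12 FPKM in ndx1-4 and 34.7 and 35.1 FPKM in Col-0, 114-fold lower (limma difference -4.80, SE 0.14, adjusted p = 6.96e-08). That ratio rests on mutant values near 0, and was 291-fold without ndx1-4 replicate 1 and 71.2-fold without ndx1-4 replicate 2. MGDC (AT2G11810) encodes a galactolipid synthase known for its induction by phosphate starvation. It had 0.25 and 0.80 FPKM in ndx1-4 and 32.9 and 32.4 FPKM in Col-0, 62.2-fold lower (limma difference -4.49, SE 0.16, adjusted p = 2.29e-07), or 40.8-fold without ndx1-4 replicate 1 and 131-fold without ndx1-4 replicate 2. GDU6 (AT3G30725), a small membrane protein of the glutamine dumper family, had 0.17 and 0.33 FPKM in ndx1-4 and 9.65 and 10.8 FPKM in Col-0, 40.8-fold lower (limma difference -3.16, SE 0.12, adjusted p = 2.54e-07). All 3 were moderately expressed in both Col-0 libraries and below 1 FPKM in both mutant libraries, where the log2(FPKM + 1) scale understates the change. MGDC is the chromosome 2 member nearest the middle of its interval, at 0.257 Mb.

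GDU6 lies between QQS and AT3G30730 on chromosome 3, and the 3 neighbours did not move together. QQS (AT3G30720), an Arabidopsis orphan gene named for its effect on leaf starch and known for expression states that follow its DNA methylation, ends 2538 bases before GDU6. It had 14.5 and 17.6 FPKM in ndx1-4 and 47.4 and 42.9 FPKM in Col-0, 2.82-fold lower (limma difference -1.45, SE 0.09, adjusted p = 5.00e-06). AT3G30730, an uncharacterized gene 4246 bases after GDU6 on the other strand, had 7.37 and 5.14 FPKM in ndx1-4 and 0.42 and 0.96 FPKM in Col-0, 9.07-fold higher (limma difference 2.103, SE 0.195, adjusted p = 3.31e-05, and up to 0.0140 with a library left out). Without Col-0 replicate 2 it was 14.9-fold higher. Both genes on the plus strand were lower, and the one on the minus strand was higher.

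Nitrogen assimilation genes were among the most abundant members. NIA2 (AT1G37130), the main nitrate reductase, had 485 and 468 FPKM in ndx1-4 and 361 and 352 FPKM in Col-0, 1.34-fold higher (limma difference 0.42, SE 0.03, adjusted p = 6.98e-06). NIR1 (AT2G15620), nitrite reductase, had 122 and 120.1 FPKM in ndx1-4 and 102 and 98.4 FPKM in Col-0, 1.21-fold higher (adjusted p = 9.53e-05 with limma, and up to 0.0127 with a library left out). GS2 (AT5G35630), the plastid glutamine synthetase that fixes ammonium from nitrite reduction and photorespiration, had 966 and 955 FPKM in ndx1-4 and 869 and 869.6 FPKM in Col-0, 1.11-fold higher (adjusted p = 4.46e-04 with limma, and up to 0.0189 with a library left out). These genes encode successive steps of one route and all stood higher in ndx1-4, by small margins. They were set together after their values had been seen, and genes of the route outside the intervals were not examined. With median-ratio scaling the limma difference of GS2 changed from 0.14 to 0.34. AGT (AT2G13360), the photorespiratory aminotransferase, was the most abundant member, with 1013 and 1000.3 FPKM in ndx1-4 and 1103 and 1101 FPKM in Col-0, 1.09-fold lower (adjusted p = 7.96e-04 with limma, and up to 0.0240 with a library left out). Its direction turned with median-ratio scaling, to a difference of 0.06.

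The other genes of this role group, set apart here after their directions had been seen, were lower apart from NIT2. ERD5 (AT3G30775), proline dehydrogenase, had 33.9 and 35.8 FPKM in ndx1-4 and 50.6 and 55.6 FPKM in Col-0, 1.52-fold lower (adjusted p = 3.66e-05 with limma, and up to 0.0150 with a library left out). ALN (AT4G04955), allantoinase of purine breakdown, had 17.8 and 16.4 FPKM in ndx1-4 and 23.7 and 23.8 FPKM in Col-0, 1.39-fold lower (adjusted p = 2.50e-04 with limma, and up to 0.0207 with a library left out). SHM7 (AT1G36370), annotated as a serine hydroxymethyltransferase, had 13.3 and 12.8 FPKM in ndx1-4 and 27.2 and 27.4 FPKM in Col-0, 2.09-fold lower (limma difference -1.01, SE 0.06, adjusted p = 3.26e-06). HB1 (AT2G16060), a haemoglobin that binds nitric oxide and is known for its response to low oxygen, showed the same size of reduction. It had 41.7 and 42.6 FPKM in ndx1-4 and 87.3 and 81.7 FPKM in Col-0, 2.0-fold lower (limma difference -0.99, SE 0.04, adjusted p = 7.41e-07).

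The nitrilase genes NIT2 and NIT1, tandem neighbours on chromosome 3 whose enzymes hydrolyse nitriles, went opposite ways. NIT2 (AT3G44300) had 36.2 and 36.9 FPKM in ndx1-4 and 19.97 and 18.4 FPKM in Col-0, 1.91-fold higher (limma difference 0.90, SE 0.06, adjusted p = 5.37e-06). NIT1 (AT3G44310), 1088 bases further on, had 708 and 690.2 FPKM in ndx1-4 and 1127 and 1086 FPKM in Col-0, 1.58-fold lower (limma difference -0.66, SE 0.03, adjusted p = 5.72e-07). Both genes kept their direction under each alternative tried. Of their 50-base words 94.3% and 96.3% were unique, so the copies share few reads of this length.

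**Figure D4:**
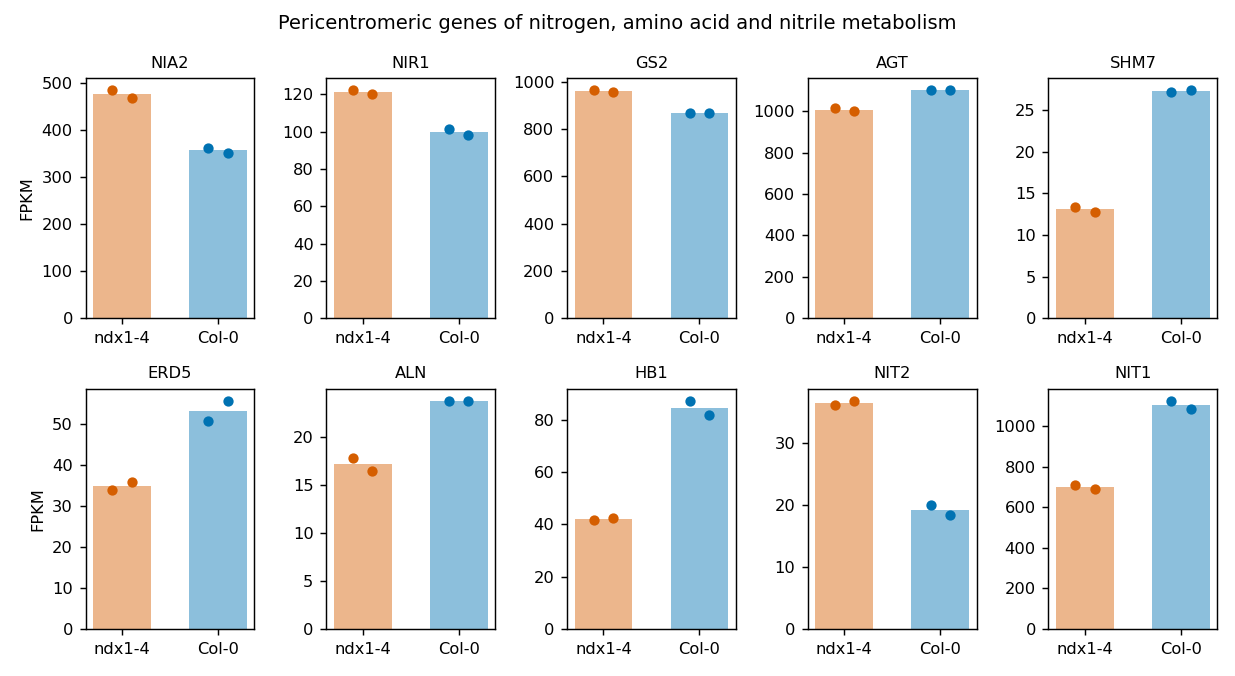
FPKM of the 10 pericentromeric genes of nitrogen, amino acid and nitrile metabolism, with ndx1-4 left and Col-0 right in each panel, bars at the mean of 2 libraries and a point for each library, on axes that start at 0. The ndx1-4 points lie above the Col-0 points for NIA2, NIR1, GS2 and NIT2 and below them for the other 6 genes, of which AGT turned to higher with median-ratio scaling.

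Transport genes other than ZIFL2 were lower, GDU6 by far the most. UMAMIT17 and UMAMIT20, adjacent genes of amino acid exporters on chromosome 4, were 1.84-fold and 1.35-fold lower, and AAP5, an amino acid permease, was 1.36-fold lower with 10.4 and 11.0 FPKM in ndx1-4 and 14.9 and 14.1 FPKM in Col-0. ABCC13 (AT2G07680), an ABC transporter, had 4.83 and 3.96 FPKM in ndx1-4 and 6.60 and 6.06 FPKM in Col-0. ZIFL2 (AT3G43790), of the zinc induced facilitator-like family, had 5.89 and 6.05 FPKM in ndx1-4 and 2.88 and 3.80 FPKM in Col-0, 1.79-fold higher. AAP5, ABCC13, UMAMIT20 and ZIFL2 each lost the limma call in 2 or more of the 4 fits that left out a library, with adjusted p up to 0.0270, 0.0759, 0.0116 and 0.0435. UMAMIT17 kept it in all 4. In the whole table, 24 of 75 genes with a transport word in the product name were higher and 51 were lower. That word search is not the role group. It matched 4 members, AAP5, ABCC13, UMAMIT20 and UMAMIT17, all lower, and left out GDU6 and ZIFL2.

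In carbon, lipid and vitamin metabolism the large differences were those of MGDC, HCS2, QQS and FTM1. HCS2 (AT1G37150), annotated as holocarboxylase synthetase 2, of an enzyme class that attaches biotin to carboxylases, is the chromosome 1 member nearest its interval's middle, at 0.675 Mb. It had 10.6 and 9.11 FPKM in ndx1-4 and 2.35 and 1.75 FPKM in Col-0, 4.80-fold higher (limma difference 1.83, SE 0.13, adjusted p = 7.20e-06). FTM1 (AT1G43800), an acyl carrier protein desaturase named for the floral transition at the meristem, had 19.6 and 20.5 FPKM in ndx1-4 and 47.3 and 48.4 FPKM in Col-0, 2.39-fold lower (limma difference -1.22, SE 0.05, adjusted p = 4.39e-07). HCS2 stood apart from NIA2, the listed gene nearest to it, in size though not in direction. Genes of photosynthetic carbon use differed little in FPKM as deposited. GAPB, the plastid glyceraldehyde-3-phosphate dehydrogenase, had 632 and 643 FPKM in ndx1-4 and 597 and 603 FPKM in Col-0. It was 1.06-fold higher, with adjusted p = 0.0068 in limma. Its limma difference of 0.09 became 0.28 with median-ratio scaling (adjusted p = 2.06e-05 in limma), which moves listed genes toward higher. FBP, annotated in the inositol monophosphatase family and named for fructose bisphosphatase, was 1.17-fold higher, and the sucrose synthase gene SUS4 was 1.76-fold higher with 8.51 and 8.78 FPKM in ndx1-4 and 4.95 and 4.88 FPKM in Col-0. GME (AT5G28840), an epimerase of ascorbate synthesis, was 1.27-fold lower, with 197 and 191 FPKM in ndx1-4 and 245 and 246 FPKM in Col-0. AT5G33370, a GDSL lipase gene and the chromosome 5 member nearest the middle of its interval at 0.703 Mb, had 10.8 and 11.9 FPKM in ndx1-4 and 7.26 and 6.44 FPKM in Col-0, 1.65-fold higher. AT5G33370 and GAPB lost the call in all 4 fits that left out a library and FBP in 3, with adjusted p in limma up to 0.0213, 0.0612 and 0.0285.

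Of the sulphur and redox genes, APK (AT2G14750), a kinase that makes activated sulphate for sulphated compounds, was 1.39-fold lower, with 37.7 and 37.8 FPKM in ndx1-4 and 52.9 and 51.8 FPKM in Col-0. MSRB5 (AT4G04830), a methionine sulphoxide reductase, was 1.63-fold lower with 78.5 and 73.3 FPKM in ndx1-4 and 128 and 119 FPKM in Col-0. The peroxidase gene AT3G32980 was 1.19-fold higher, with adjusted p in limma up to 0.0137 when a library was left out. Among secreted proteins, AT2G10940, of the lipid transfer protein type, was abundant and nearly level between genotypes at 782 and 795 FPKM in ndx1-4 and 887 and 936 FPKM in Col-0. Its limma difference of -0.21 became -0.02 with median-ratio scaling (adjusted p = 0.646), and 3 of the 4 fits that left out a library lost its call (adjusted p up to 0.0341). The basic secretory protein gene AT2G15220 was 1.58-fold lower, with 77.5% of its 50-base words unique because of the pseudogene AT2G15120.

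Genes for receptors, signalling and defence gave differences of up to 3.43-fold, at low levels apart from ANNAT1. The thionin gene AT2G15010, 114-fold lower, was counted with the secreted proteins. MLO9 (AT1G42560), of the membrane protein family that includes powdery mildew susceptibility factors, had 2.36 and 1.52 FPKM in ndx1-4 and 0.59 and 0.54 FPKM in Col-0, 3.43-fold higher, with adjusted p = 7.34e-04 in limma and up to 0.0371 with a library left out. AT1G35710, a leucine-rich repeat kinase gene, had 5.70 and 4.70 FPKM in ndx1-4 and 2.44 and 2.53 FPKM in Col-0, 2.09-fold higher, with adjusted p up to 0.0183 in those fits. Its neighbour 486 bases on, ANNAT1 (AT1G35720), which encodes the calcium-binding membrane protein annexin 1, went the other way. ANNAT1 had 156 and 162 FPKM in ndx1-4 and 345 and 343 FPKM in Col-0, 2.16-fold lower (limma difference -1.11, SE 0.03, adjusted p = 4.43e-08). The receptor-like protein gene RLP19 was 1.35-fold lower, with adjusted p = 0.00312 in limma and up to 0.0563 with a library left out.

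Of the genes with no known role, AT3G43110 was 5.56-fold lower with 2.28 and 3.22 FPKM in ndx1-4 and 15.0 and 15.6 FPKM in Col-0 (limma difference -2.13, SE 0.13, adjusted p = 3.41e-06). AT1G43910, a P-loop nucleoside triphosphate hydrolase gene, had 3.0 and 2.19 FPKM in ndx1-4 and 12.0 and 12.3 FPKM in Col-0, 4.67-fold lower (limma difference -1.88, SE 0.12, adjusted p = 5.11e-06). AT4G04990 and AT3G43850 were 2.61-fold and 2.19-fold lower. AT2G14520, with a CBS domain, had 9.44 and 8.66 FPKM in ndx1-4 and 3.14 and 4.27 FPKM in Col-0, 2.44-fold higher (limma difference 1.104, SE 0.13, adjusted p = 9.34e-05, and up to 0.0237 with a library left out). AT4G07825, the chromosome 4 member nearest the middle of its interval at 0.669 Mb, was 1.33-fold higher, with 51.7 and 51.9 FPKM in ndx1-4 and 38.4 and 39.5 FPKM in Col-0, and its adjusted p in limma was 0.0104 without ndx1-4 replicate 2. AT5G28400 was 1.299-fold lower, but 13.2% of its 50-base words were unique and most others recur in AT5G28320, so its value is uncertain, and all 4 fits that left out a library lost its call. The other 9 of these 16 genes comprise AT2G11405, AT2G13550 and AT3G30730, given above, and 6 that differed by less than 1.5-fold.

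The noncoding RNAs were both higher. AT5G34871 had 59.6 and 55.9 FPKM in ndx1-4 and 32.4 and 29.6 FPKM in Col-0, 1.86-fold higher (limma difference 0.88, SE 0.06, adjusted p = 5.79e-06), with 62.4% of its 50-base words unique. AT2G14878 had 112 and 111 FPKM in ndx1-4 and 85.9 and 81.2 FPKM in Col-0, 1.33-fold higher (limma difference 0.41, SE 0.04, adjusted p = 2.81e-05, and up to 0.0126 with a library left out). It stands 6362 bases before AGP9 in a row of 4 neighbouring members on chromosome 2 that were all higher. The others were AT2G14900, a gibberellin-regulated peptide gene that was 1.40-fold higher, and AT2G14910, a gene for a MAR-binding filament-like protein that was 1.0975-fold higher, both beyond AGP9. AT2G14910 lost the call in all 4 fits that left out a library (adjusted p in limma up to 0.0503).

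Across all members, 10 pairs of successive listed genes lay within 20 kb of each other, and unlisted genes may lie between them. Of the pairs 7 (70%) had the same direction, against 59.5% of 744 such pairs in the whole table. Some pairs share a gene, as in the row around AGP9. The pairs with opposite directions were AT1G35710 with ANNAT1, GDU6 with AT3G30730, and NIT2 with NIT1.

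Position within an interval and starting level were also set against direction. From the middle of the interval outward, 4, 10, 25 and 27 genes lay at 0 to 0.5, 0.5 to 1, 1 to 1.5 and 1.5 to 2 Mb, and 2, 7, 13 and 11 of them were higher in ndx1-4. So few genes stood near the middle that no trend is read from these counts. On chromosomes 1 to 5, 7 of 13, 9 of 19, 6 of 13, 4 of 10 and 7 of 11 genes were higher, and on chromosome 5 none of the 11 differed by 2-fold. Direction went with the Col-0 level. All 7 genes under 1 FPKM in Col-0 were higher in ndx1-4, as were 8 of 11 between 1 and 10 FPKM, 9 of 30 between 10 and 100 FPKM and 9 of 18 above 100 FPKM. Among the other listed genes the shares were 93.9%, 58.8%, 32.2% and 40.2%, so the pattern is that of the whole table. A gene near 0 in Col-0 has little room to be lower, so nearly all such genes that are called will be higher.

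**Figure D5:**
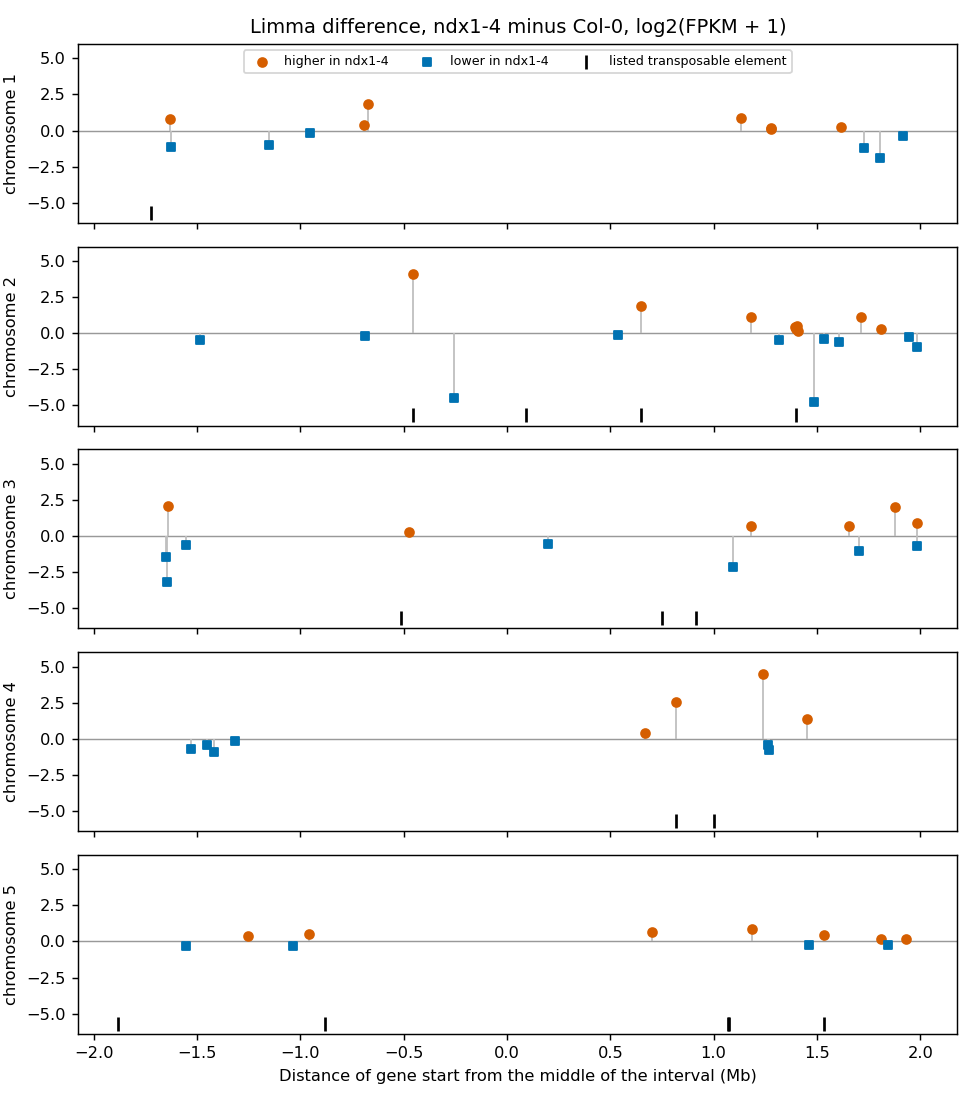
Limma difference of each of the 66 genes, ndx1-4 minus Col-0 on the log2(FPKM + 1) scale, against the distance in Mb of its start from the middle of the interval, with one panel per chromosome (circles, higher in ndx1-4; squares, lower). Vertical ticks near the foot mark the 15 listed transposable elements. Genes are sparse within 0.5 Mb of the middle, and the panel of chromosome 5 has no difference as large as 1.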

How the data were processed

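Per the labels, total RNA was made into libraries with a TruSeq RNA kit and read as single reads of 50 bases on a MiSeq. The authors ran Salmon, correcting for GC bias, on Araport11 genes and, in a separate run, Araport11 transposable elements, and called differences with DESeq2. From the deposited tables, FPKM of each library were taken for the 1984 genes and 49 elements so called (TAIR10). Gene FPKM were rounded to 0.01, and commas in large values were removed. The deposited fold changes and p-values of the authors' own comparison were not used.

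Groups came from sample titles. The 66 members were picked by gene start. All 1984 gene IDs matched RefSeq TAIR10.1 with identical coordinates, and names, exons and sequences were taken from it. Overlapping exons of a gene's transcripts were merged before exons were counted, so a gene with introns in some transcripts can count as single-exon. Uniqueness is the share of a gene's 50-base words in exons that occur once in the genome, counting both strands.

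Genotypes were compared with limma 3.58.1 in R 4.3.3 on log2(FPKM + 1) with a trended variance. All 1984 genes and 4 libraries entered, with Benjamini-Hochberg adjustment at 0.01. The step was tested on simulated data in which most genes were unchanged, unlike this table, so that test does not bear on the share called here. A count model could not be used on FPKM. The scale understates changes of low genes, and fold values are ratios of mean FPKM. An exact permutation test cannot go below p = 0.333 with 2 libraries per genotype, so none was run. Named genes were the 10 largest differences each way, the 5 most abundant, those overlapping listed elements, noncoding ones, those at 0 in a genotype and the nearest to each interval's middle. Other members named, and the role groups, were chosen after their values had been seen. The members and gene lists were chosen with earlier results of these data known. Alternatives were a pseudocount of 0.1, a minimum of 1 FPKM, no variance trend, median-ratio scaling, a replicate block, a library left out, a 1.5-fold minimum, shorter intervals and whole genes inside the intervals. Depth per library is unknown, so no counting interval is given.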

Additional observations from a re-analysis of the deposited data

How the results depend on the processing

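Leaving out a library brought the called genes to between 38 and 40 of 66, with 17 to 19 called higher and 19 to 23 called lower, no sign changed, and the genes lost had mostly small differences. With a minimum of 1.5-fold, 34 genes were called, 17 higher and 17 lower. With each interval shortened by 1 Mb at both ends (0.75 Mb on chromosome 4), 14 genes were left and all 14 called, 9 higher and 5 lower, of which 3 were at least 2-fold higher and 1 at least 2-fold lower. With the 1.5-fold minimum and with shorter intervals every gene left was called, so those falls are in the genes counted. What lies behind the calls lost with a library left out was not tested. Without the variance trend 57 genes were called (30 higher, 27 lower), and with median-ratio scaling 55 (33 higher, 22 lower), where AT1G36730, AGT and AT4G05150 changed sign. For AGT the difference became 0.0613 (adjusted p = 0.0377 in limma), by the shift that this scaling puts on the listed genes. Which scaling is nearer the truth was not tested. A pseudocount of 0.1, a minimum of 1 FPKM and whole genes inside the intervals each left 66 called. The replicate block also left 66 called. Replicate numbers do not pair the libraries by any label, and deviations of equal numbers correlated across genes at 0.02 over all genes and 0.03 over members. Of the values of single named genes under these settings, 246 kept their direction and side of the threshold, 41 lost the call and 1 reversed. Depth is unknown, so how far counting error limits genes near 1 FPKM cannot be given.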
